A study of Mus musculus with 6 samples.

Results

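The Notch pathway was followed in cultured cancer-associated fibroblasts (CAFs), which are the activated stromal fibroblasts found in tumours, through 10 genes chosen by symbol: the receptors Notch1, Notch2, Notch3 and Notch4, the Jagged ligands Jag1 and Jag2, and the target genes Hes1, Hey1, Hey2 and Heyl. All 10 were found once each among the 55401 genes of the table. They were chosen because thrombospondin-2, the protein made by Thbs2, is a known partner of Notch3. RNA-seq was carried out on 6 libraries, 3 from wild-type (WT) hosts and 3 from Thbs2KO hosts. In both groups tumours had been grown from mouse tumour organoids placed in the rectum, and the CAFs were isolated and then cultured on fibronectin in medium with serum. The genotype refers to the host mice. The sources used here do not give the strain, age or number of the mice, the type of the Thbs2 allele or the genotype of the organoids. It is not stated whether replicates came from separate mice or separate cultures. The p-values therefore cover only the spread among these 6 libraries, and part of that may be technical.

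Notch receptors are transmembrane proteins that are switched on by a ligand on a neighbouring cell. Binding exposes the receptor to cleavage by ADAM proteases and then by gamma-secretase, which frees an intracellular domain. This domain enters the nucleus, joins the DNA-binding protein RBPJ and a Mastermind-like coactivator, and turns on genes of the HES and HEY families, which encode transcriptional repressors. In stromal cells Notch3 is best known from pericytes and vascular smooth muscle, and thrombospondin-2 has been reported to bind Notch3 and Jagged1.

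Promoter sequences, from 250 bases before to 50 bases after the start of transcription, were taken from RefSeq (GRCm38.p6). The table held 1 promoter for each of 7 members, and Hes1, Hey1 and Heyl were not in it. The promoters shown are those of Notch2, the most abundant receptor, of Notch3, the reported partner of thrombospondin-2, and of Hey2, a target gene. RBPJ is known to bind the letters TGGGAA, which were searched for on both strands (TTCCCA on the other) and are in capitals.

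Notch2, chr3:98013288-98013587, plus strand: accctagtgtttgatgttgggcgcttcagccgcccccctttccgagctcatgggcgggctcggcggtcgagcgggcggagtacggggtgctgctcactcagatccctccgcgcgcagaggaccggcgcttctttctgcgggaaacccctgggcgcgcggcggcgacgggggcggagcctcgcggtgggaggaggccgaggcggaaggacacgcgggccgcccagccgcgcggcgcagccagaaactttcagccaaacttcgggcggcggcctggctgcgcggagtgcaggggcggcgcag

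Notch3, chr17:32166841-32167140, minus strand: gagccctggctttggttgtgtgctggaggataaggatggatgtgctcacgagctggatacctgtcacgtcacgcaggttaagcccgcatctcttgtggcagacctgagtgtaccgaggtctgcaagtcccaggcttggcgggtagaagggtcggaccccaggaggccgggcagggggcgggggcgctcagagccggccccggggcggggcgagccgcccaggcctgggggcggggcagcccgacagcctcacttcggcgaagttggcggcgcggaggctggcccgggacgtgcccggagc

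Hey2, chr10:30842734-30843033, minus strand: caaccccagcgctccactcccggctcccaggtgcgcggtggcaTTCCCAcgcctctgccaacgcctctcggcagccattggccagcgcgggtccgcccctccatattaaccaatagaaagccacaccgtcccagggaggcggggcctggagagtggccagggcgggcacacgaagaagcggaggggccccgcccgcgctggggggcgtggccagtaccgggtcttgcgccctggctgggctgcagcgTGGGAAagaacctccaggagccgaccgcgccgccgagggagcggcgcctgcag

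Hey2 had 2 matches. The first lay from -207 to -202 and was on the minus strand of the window as printed. The second spanned the start of transcription itself, from -3 to 3. The other 6 promoters had 0 matches. Among 32841 promoters of the same length, 25.6% held at least 1 match and 3.78% held at least 2. A match is a description of letters, and 0 matches says only that these letters are not in the window.

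Total expected counts were 23061568 to 24417464 in WT and 19649066 to 20860335 in Thbs2KO. Levels are given as CPM, counts scaled to library size after TMM normalization, and 1 read was worth 0.0419 to 0.0489 CPM. Thbs2 served to check the genotype labels and was lower in every Thbs2KO library, at 412 to 538.2 CPM against 2327 to 4166 CPM in WT (edgeR, Benjamini-Hochberg adjusted p = 0.00521). The first principal component, with 46% of the variance, separated the WT libraries (-39.8 to -11.2) from the Thbs2KO libraries (17.9 to 45.9). The second principal component, with 27.9% of the variance, separated 2 libraries, WT replicate 1 (44.9) and Thbs2KO replicate 3 (16.3), from the other 4 (-22.1 to -4.18). Of all pairs of libraries, Thbs2KO replicates 1 and 2 differed least. Fibroblast markers were abundant: Col1a1, a collagen I chain, averaged 13577 ± 1325 CPM in WT libraries and 11672 ± 362 CPM in Thbs2KO (SD, n = 3). The 12 listed markers summed to 29653 to 32301 CPM in WT and 28868 to 40551 CPM in Thbs2KO. Col1a1 was 1 of 4 among them with a negative log2 fold change, and their median was 0.31. By edgeR 0 of the 12 changed. DESeq2 called 1, Pdgfra, which was higher (log2 fold change 1.04, Benjamini-Hochberg adjusted p = 0.172 by edgeR and 0.00507 by DESeq2). The groups did not overlap for 2 higher markers, Pdgfra and Fbln1, and for 1 lower marker, Col1a1. The 10 endothelial markers summed to 11.9 to 32.4 CPM in WT and 32.4 to 50.6 CPM in Thbs2KO, most of it from Kdr and Tek. The lowest of them, Cldn5 and Tie1, had 0 reads and 1 read in all libraries together. Pecam1 had 14 reads in WT and 12 in Thbs2KO, summed over each group, and Cdh5 had 20 and 10. Leukocyte markers (10) summed to 3.94 to 14.9 CPM in WT and 2.15 to 9.24 CPM in Thbs2KO. Epithelial markers (11) summed to 24.6 to 34.1 CPM in WT and 12.5 to 17.99 CPM in Thbs2KO. Log2 fold changes were negative for 7 of 7 tested epithelial markers, with a median of -1.30, against 50.9% of all tested genes. By edgeR 0 of these 7 changed, where 1.09% of all tested genes did. DESeq2 called 2, Krt19 and Krt20, both lower, against 5.14%. Mesothelial and Schwann or glial markers (5 each) summed to at most 2.15 CPM in any library. In bulk samples, fewer cells of a type and less RNA per cell cannot be told apart.

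None of the 10 genes passed the test between genotypes. Counts were high enough to test 6 of them (all 4 receptors, Jag1 and Hes1), and 0 of these 6 changed by edgeR with Benjamini-Hochberg adjustment over 13590 genes, where 1.09% of all tested genes changed. At an unadjusted p under 0.05, 1 member was lower (Notch2) and 0 were higher, against 7.56% of all tested genes lower, 5.72% higher and 13.3% in either direction. DESeq2 also called 1, again Notch2, where it called 5.14% of all tested genes. The groups did not overlap for 1 tested member, Notch2, which was lower. This held for 10.3% of tested genes in that direction, for 9.36% in the other and for 19.6% in both together. Negative log2 fold changes were seen in 5 of 6 tested members, with a median of -0.23, against 50.9% of all tested genes and a median of 0.00. The call for Notch2 thus depended on the tool. It was not made by edgeR with any 1 library left out.

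**Figure D1:**
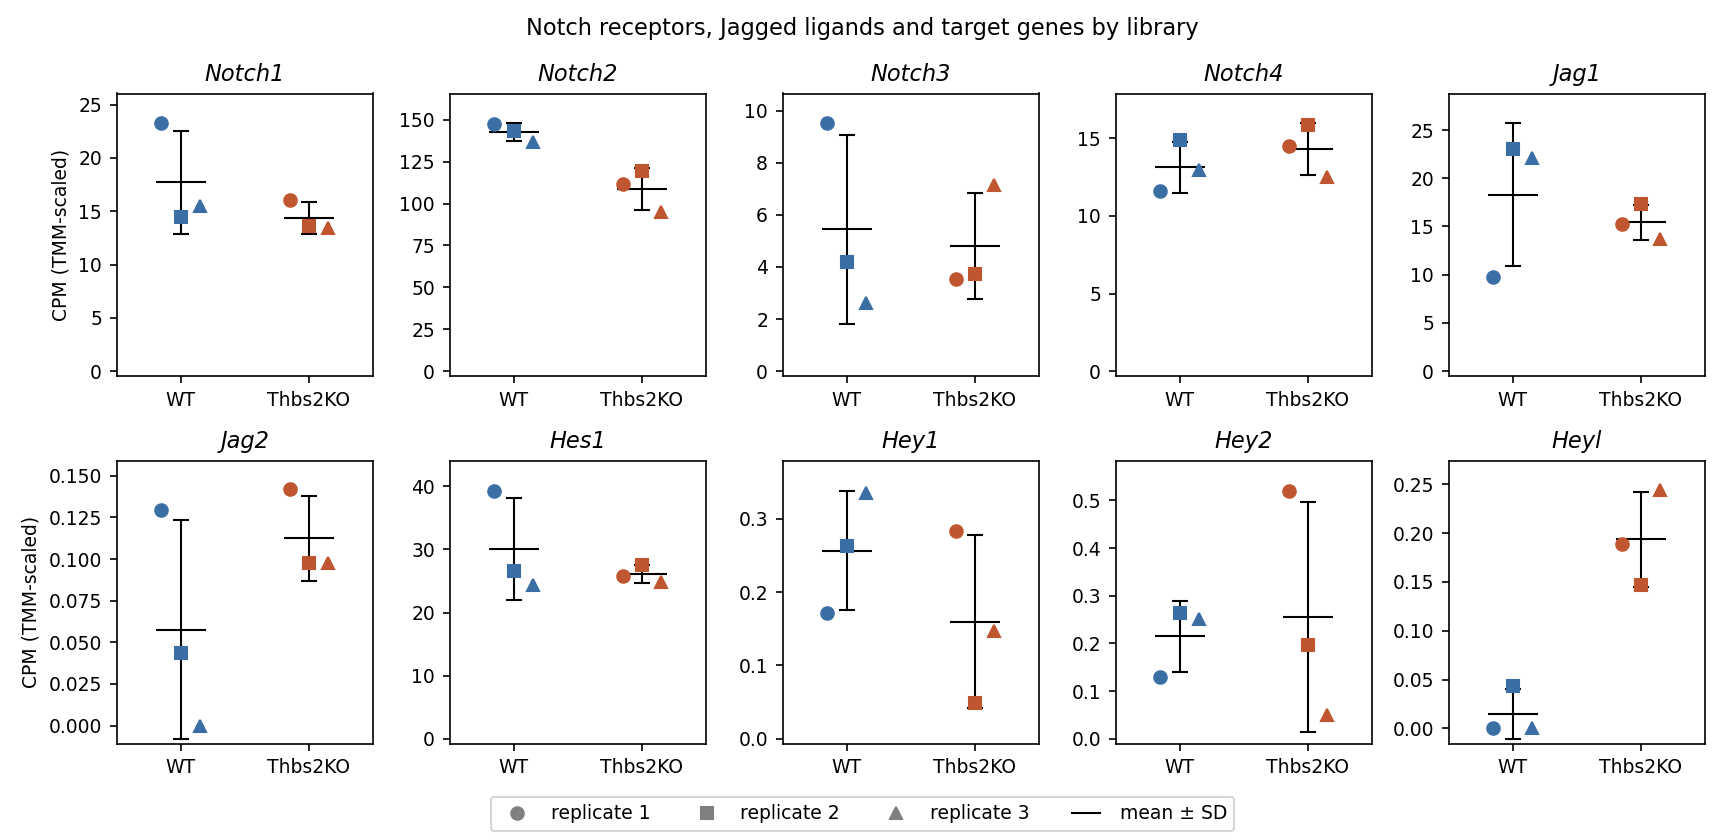
Level of each of the 10 genes in the 6 libraries, as TMM-scaled CPM on a linear axis of its own for each gene. Points are libraries, with 1 marker shape for each replicate number, and the black lines are means with SD over 3 libraries. Notch2 is the only tested gene whose groups do not overlap, WT replicate 1 is highest for Notch1, Notch3 and Hes1 and lowest for Jag1, and Jag2, Hey1, Hey2 and Heyl stay below 0.55 CPM.

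Notch2 (ENSMUSG00000027878.11, chromosome 3, 98013527 to 98150361, plus strand, mm10) is a receptor expressed in many mesenchymal cells. Its normalised read count was 147.4, 143.5 and 136.6 CPM in WT replicates 1, 2 and 3 and 111.8, 119.6 and 95 CPM in Thbs2KO replicates 1, 2 and 3. All 3 Thbs2KO values were below all 3 WT values. The mean was 142.5 ± 5.43 CPM in WT and 108.8 ± 12.6 CPM in Thbs2KO (SD, n = 3), a log2 fold change of -0.39 (standard error 0.0988, 95% interval -0.62 to -0.15, edgeR, Benjamini-Hochberg adjusted p = 0.146). This corresponds to a level 23.6% lower, with a ratio of 0.764 and an interval of 0.648 to 0.899. DESeq2 gave an adjusted p of 0.0367. In edgeR fits with 1 library left out, the log2 fold change ran from -0.46 to -0.30 and the edgeR Benjamini-Hochberg adjusted p from 0.167 to 0.382. With both libraries left out that the second principal component set apart, WT replicate 1 and Thbs2KO replicate 3, it was -0.27 (edgeR, adjusted p = 0.0286). That fit was added after the data were examined. Its Thbs2KO group was replicates 1 and 2, the pair of libraries that differed least, and it called 1519 of 13617 tested genes, against 148 of 13590 with all libraries. Its p-values are therefore not read as a result for Notch2.

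Notch1 (ENSMUSG00000026923.15, chromosome 2, 26457903 to 26516663, minus strand) is the receptor best known from T cell development and epithelial stem cells. It measured 23.2, 14.4 and 15.5 CPM in WT replicates 1, 2 and 3, against 16.1, 13.6 and 13.4 CPM in Thbs2KO replicates 1, 2 and 3. WT replicate 1 stood above the other 5 libraries, which spanned 13.4 to 16.1 CPM, and the groups overlapped. The log2 fold change was -0.30 (95% interval -0.78 to 0.18, edgeR, Benjamini-Hochberg adjusted p = 0.615). Without WT replicate 1 it was -0.06.

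Notch3 (ENSMUSG00000038146.8, chromosome 17, 32120820 to 32166852, minus strand) was the least abundant receptor and the one that varied most between libraries. It measured 9.51, 4.21 and 2.60 CPM in WT replicates 1, 2 and 3, from 221, 96 and 62 reads. In Thbs2KO replicates 1, 2 and 3 it measured 3.55, 3.72 and 7.14 CPM, from 75, 76 and 146 reads. WT replicate 1 and Thbs2KO replicate 3, the libraries that the second principal component set apart, were the highest of their groups. The means were 5.44 ± 3.62 and 4.80 ± 2.03 CPM (SD, n = 3), and the log2 fold change was -0.18 (standard error 0.518 by edgeR, Benjamini-Hochberg adjusted p = 0.933). Its 95% interval ran from -1.42 to 1.06, so that a ratio as low as 0.374 or as high as 2.08 lay within it. A difference of that size was not detectable with these libraries. The sign rested on WT replicate 1, the one library whose removal alone turned it: without it the log2 fold change was 0.50. Without Thbs2KO replicate 3 it was -0.58.

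Notch4 (ENSMUSG00000015468.14, chromosome 17, 34564268 to 34588503, plus strand), known mainly as an endothelial receptor, measured 11.6, 14.9 and 12.95 CPM in WT and 14.5, 15.9 and 12.5 CPM in Thbs2KO. The groups overlapped over most of their range, and WT replicate 1 was the lowest library. The log2 fold change was 0.12 (95% interval -0.22 to 0.46, edgeR, Benjamini-Hochberg adjusted p = 0.806). Of the 10 endothelial markers 2 had testable counts. Kdr, a VEGF receptor gene, measured 2.497, 26.3 and 10.6 CPM in WT and 45.0, 28.0 and 21.5 CPM in Thbs2KO, lowest like Notch4 in WT replicate 1. Tek, the gene of the TIE2 receptor, ranged from 4.70 to 9.73 CPM over the 6 libraries. The other 8 had at most 15 reads in any library, with Cldn5 at 0 in all of them. The part of endothelial cells in the Notch4 level was not tested. Notch3 and Notch4 lie on the same chromosome as Thbs2 (chromosome 17, 14665500 to 14694235). So does the ligand gene Dll1 (15367354 to 15376872), which is nearer to Thbs2 than either receptor gene.

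The receptors could be compared with each other only per length of transcript, as CPM per kb of annotated exon. On that scale Notch2 measured 13.2 ± 0.504 in WT and 10.1 ± 1.17 in Thbs2KO (SD, n = 3), Notch4 1.63 ± 0.204 and 1.77 ± 0.208, Notch1 1.24 ± 0.339 and 1.01 ± 0.105, and Notch3 0.673 ± 0.447 and 0.594 ± 0.25. Notch2 stood above the other receptors in each library, while the ranges of Notch4 and Notch1 over 6 libraries overlapped, as did those of Notch1 and Notch3. Of the summed level of the 4 receptors per kb, Notch2 made up 72.3% to 80.8% in the 6 libraries. The share of Notch4 was 8.02%, 11.0% and 10.2% in WT and 13.1%, 13.6% and 12.7% in Thbs2KO, so that the groups did not overlap. The CPM of Notch4 itself overlapped between the groups, and so did the shares of Notch1, Notch2 and Notch3. A share also depends on the other receptors in the sum. Most of the sum was Notch2, whose CPM was lower in every Thbs2KO library than in any WT library. The separation of the Notch4 share is therefore not read as a change in Notch4, and it was not tested against a background.

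**Figure D2:**
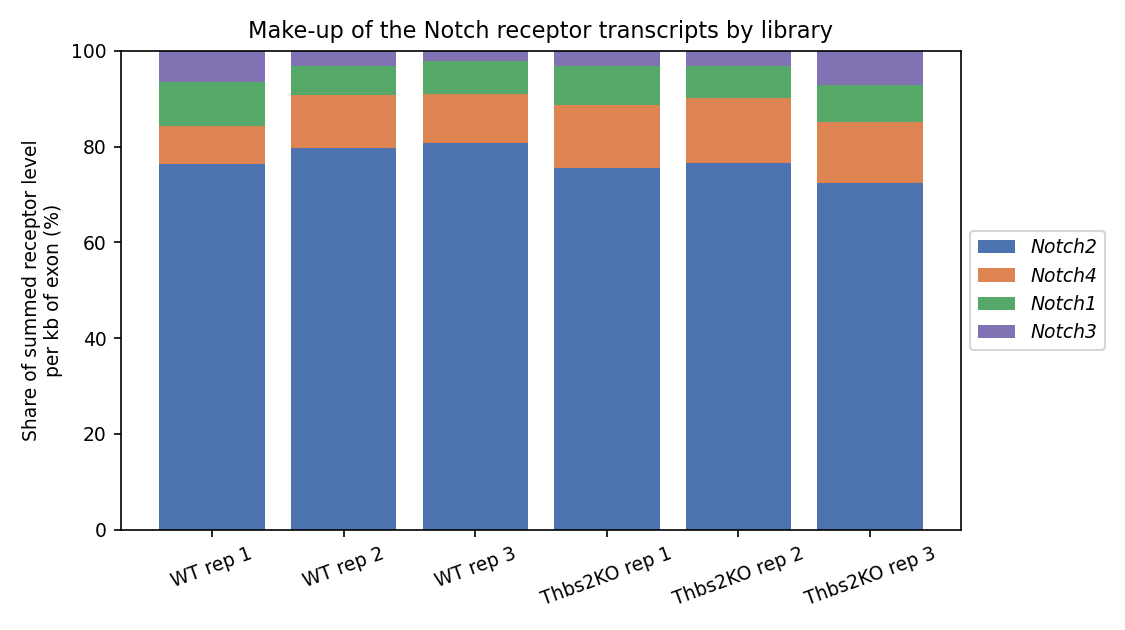
Share of each Notch receptor in the summed level of the 4 receptors, in percent of CPM per kb of exon, for each of the 6 libraries (bars, from 0 to 100%). Notch2 fills 72.3% to 80.8% of each bar, and Notch3 reaches its widest shares in WT replicate 1 (6.57%) and Thbs2KO replicate 3 (7.24%).

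Of the ligands, Jag1 was present and Jag2 was near the floor. Jag1 (ENSMUSG00000027276.7, chromosome 2, 137081456 to 137116644, minus strand) encodes Jagged1, a membrane ligand of Notch receptors. It measured 9.77, 23.0 and 22.1 CPM in WT replicates 1, 2 and 3 and 15.2, 17.4 and 13.7 CPM in Thbs2KO replicates 1, 2 and 3. WT replicate 1 was the lowest of the 6 libraries and the other WT libraries were the highest, so the Thbs2KO libraries lay between them. The means were 18.3 ± 7.40 and 15.4 ± 1.83 CPM (SD, n = 3), with a log2 fold change of -0.24 (95% interval -1.0 to 0.51, edgeR, Benjamini-Hochberg adjusted p = 0.83). Without WT replicate 1 the log2 fold change was -0.55 (edgeR, adjusted p = 0.093), and without both WT replicate 1 and Thbs2KO replicate 3 it was -0.47 (edgeR, adjusted p = 0.0273). The second of these fits was added after the data were examined. It rests on Thbs2KO replicates 1 and 2, the most alike pair of libraries, and its p-value has the same limit as for Notch2. Over the edgeR fits with 1 library left out, the adjusted p ran from 0.093 to 0.994.

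Jag2 (ENSMUSG00000002799.6), the second Jagged ligand, had 3, 1 and 0 reads in WT and 3, 2 and 2 reads in Thbs2KO, all at or under a floor of 3 reads per library. No fold change is given. Among the other ligands, Delta-like Dll3 had 0 reads in every library and Dll4 had 7 reads in WT and 3 in Thbs2KO summed over each group. Dll1 measured 0.126 to 0.689 CPM in WT and 0.294 to 0.978 CPM in Thbs2KO, and the noncanonical ligand Dlk1 6.42 ± 1.23 and 7.67 ± 0.228 CPM (SD, n = 3). Egfl7 and Mfap2, secreted proteins reported to bind Notch or Jagged1, measured 3.42 ± 0.13 and 10.2 ± 5.22 CPM in WT and 4.09 ± 0.345 and 17.4 ± 10.1 CPM in Thbs2KO. An unadjusted p under 0.05 was reached by 0 of 5 tested ligand genes of the list, against 13.3% of all tested genes. Jag1 was the most abundant of the Jagged and Delta-like genes that activate the receptors, at 3.14 ± 1.27 CPM per kb in WT and 2.65 ± 0.314 CPM per kb in Thbs2KO.

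Of the target genes, Hes1 was the only one above the floor in every library. Hes1 (ENSMUSG00000022528.8, chromosome 16, 30064384 to 30067796, plus strand) encodes a basic helix-loop-helix repressor that is the best known direct target of Notch signalling and also responds to other signals. It measured 39.3, 26.6 and 24.3 CPM in WT replicates 1, 2 and 3 and 25.9, 27.6 and 24.8 CPM in Thbs2KO replicates 1, 2 and 3. WT replicate 1 stood alone, and the other 5 libraries lay within 24.3 to 27.6 CPM. The log2 fold change was -0.21 (95% interval -0.65 to 0.24, edgeR, Benjamini-Hochberg adjusted p = 0.733). Without WT replicate 1 it turned to 0.03.

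The HEY genes encode repressors related to HES proteins and mark Notch signalling in vascular cells. Hey1 (ENSMUSG00000040289.8) had 4, 6 and 8 reads in WT and 6, 1 and 3 in Thbs2KO. Hey2 (ENSMUSG00000019789.9), whose promoter with 2 matches is printed above, had 3, 6 and 6 reads in WT and 11, 4 and 1 in Thbs2KO. Ratios of the summed counts, scaled to library size, were 0.626 for Hey1 (95% interval 0.258 to 1.43) and 1.20 for Hey2 (0.557 to 2.61). These exact intervals cover counting error only, and both included equal levels.

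Heyl (ENSMUSG00000032744.4) had 0, 1 and 0 reads in WT and 4, 3 and 5 reads in Thbs2KO. Every Thbs2KO library thus had more reads than any WT library, but from 1 read and 12 reads in all. Heyl was 1 of 4 members without testable counts. How often genes with so few reads separate in this way was not counted, so no difference is read from it. The ratio of summed counts was 13.5, with an exact 95% interval from 2.0 to 578.1 that covers counting error only. Heyl did not reach testable counts, and in the edgeR fit with no filter it had an unadjusted p of 0.0117 and a Benjamini-Hochberg adjusted p of 0.276.

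Per kb of exon and over all 6 libraries, the order of levels was Hes1 (mean 13.8 CPM per kb), Notch2 (11.7), Jag1 (2.90), Notch4 (1.70), Notch1 (1.13), Notch3 (0.633), Hey1 (0.0638), Hey2 (0.0511), Heyl (0.0204) and Jag2 (0.0122). Neighbours in this order separated over all libraries at 2 steps, between Notch2 and Jag1 and between Notch3 and Hey1. At the other steps the ranges overlapped.

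**Figure D3:**
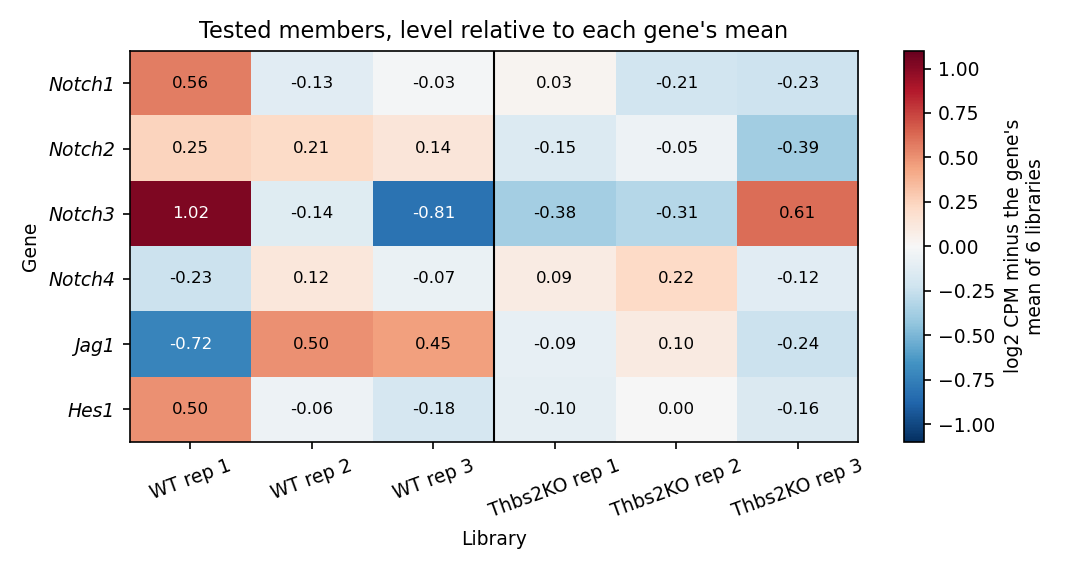
Level of each tested member in each library as log2 CPM minus that gene's mean over the 6 libraries (red above, blue below, with the value printed in each cell). WT replicate 1 stands at 1.02 for Notch3, 0.56 for Notch1, 0.50 for Hes1 and -0.72 for Jag1, and Notch2 is above its mean in the 3 WT libraries and below it in the 3 Thbs2KO libraries.

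WT replicate 1 was the extreme library for each of the 6 tested members, a pattern seen in the data rather than looked for. It was the highest of 6 for Notch1, Notch2, Notch3 and Hes1 and the lowest for Jag1 and Notch4. Over all tested genes it was the highest or the lowest library for 37.0%. Relative to the mean of the other WT libraries, its level was 1.56 times for Notch1, 2.80 times for Notch3, 1.54 times for Hes1 and 0.433 times for Jag1, against 1.05 times for Notch2. Notch3 is known from pericytes and smooth muscle, whose 12 listed markers summed to 432.0, 1430.5 and 1061 CPM in WT replicates 1, 2 and 3 and to 442.3, 581.2 and 451.1 CPM in Thbs2KO replicates 1, 2 and 3. The sum was lowest in the library where Notch3 was highest, and much of it came from the contractile genes Cnn1, Actg2, Myh11 and Lmod1. Single markers differed from the sum. Ndufa4l2, a pericyte marker, measured 26.2, 5.56 and 10.9 CPM in WT and 13.003, 11.55 and 19.9 CPM in Thbs2KO, highest in the same 2 libraries as Notch3. Cspg4, which encodes the NG2 proteoglycan, ranged from 61.0 to 160.8 CPM, the intermediate filament gene Des from 11.54 to 175.2 CPM and Abcc9, a potassium channel subunit gene, from 5.21 to 22.3 CPM, each lowest in WT replicate 1. Rgs5 had 4 to 14 reads per library and Higd1b 0 reads in all. The part of these cells in the Notch3 level was not tested. In this list 0 of 10 tested markers changed by edgeR over all genes, where 1.09% of all tested genes did. At an unadjusted p under 0.05 there were 5 lower, against 7.56% of all tested genes. DESeq2 called 3 (Mcam, Cnn1 and Lmod1), all lower, against 5.14%. Mcam, which is not among the contractile genes named above, measured 8.44, 13.8 and 12.5 CPM in WT and 4.26, 5.43 and 5.38 CPM in Thbs2KO. Its log2 fold change was -1.21 (standard error 0.22 by edgeR, Benjamini-Hochberg adjusted p = 0.0691, DESeq2 adjusted p = 0.000215).

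Genes with the pattern most like that of Notch3 were ranked among 11846 protein-coding genes of at least 1 CPM, by the root-mean-square distance between mean-centred log2 CPM over the 6 libraries. The nearest were Parp14 (0.149), Tlr3 (0.159), Tap1 (0.181), Pdzd2 (0.188) and Rab40b (0.191), against a median distance of 0.642. Parp14, for example, measured 55.2, 20.5 and 17.3 CPM in WT and 21.4, 23.1 and 47.5 CPM in Thbs2KO, with the same high libraries as Notch3. Among those nearest to Notch2, the member with the smallest p, were Frmd4a (0.0398), Mtfmt (0.0438), Dync1h1 (0.0488) and Gclm (0.0534), against a median of 0.275. Dync1h1, the dynein heavy chain, measured 754.1 to 796.8 CPM in WT and 504.9 to 602.0 CPM in Thbs2KO. None of these 9 genes passed the test between genotypes (edgeR, Benjamini-Hochberg adjusted p from 0.0766 for Dync1h1 to 0.995 for Parp14). They were chosen for profiles like those of Notch3 and Notch2, which edgeR did not call. That outcome therefore follows largely from the choice and is no separate result.

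The rest of the pathway was read from 8 lists with 89 further genes, of which 72 reached testable counts. By edgeR 0 of 72 changed over all genes (Benjamini-Hochberg adjusted p below 0.05), where 1.09% of all tested genes did. At an unadjusted p under 0.05, 8 were higher and 5 lower, together 18.1% against 13.3% of all tested genes. DESeq2 called 1 higher and 4 lower, 6.94% against 5.14%. The groups did not overlap for 8 higher and 11 lower genes, 26.4% against 19.6%. The median log2 fold change was 0.01, against 0.00 over all tested genes. These shares stood close to the background, and nothing particular to the pathway is read from them.

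**Figure D4:**
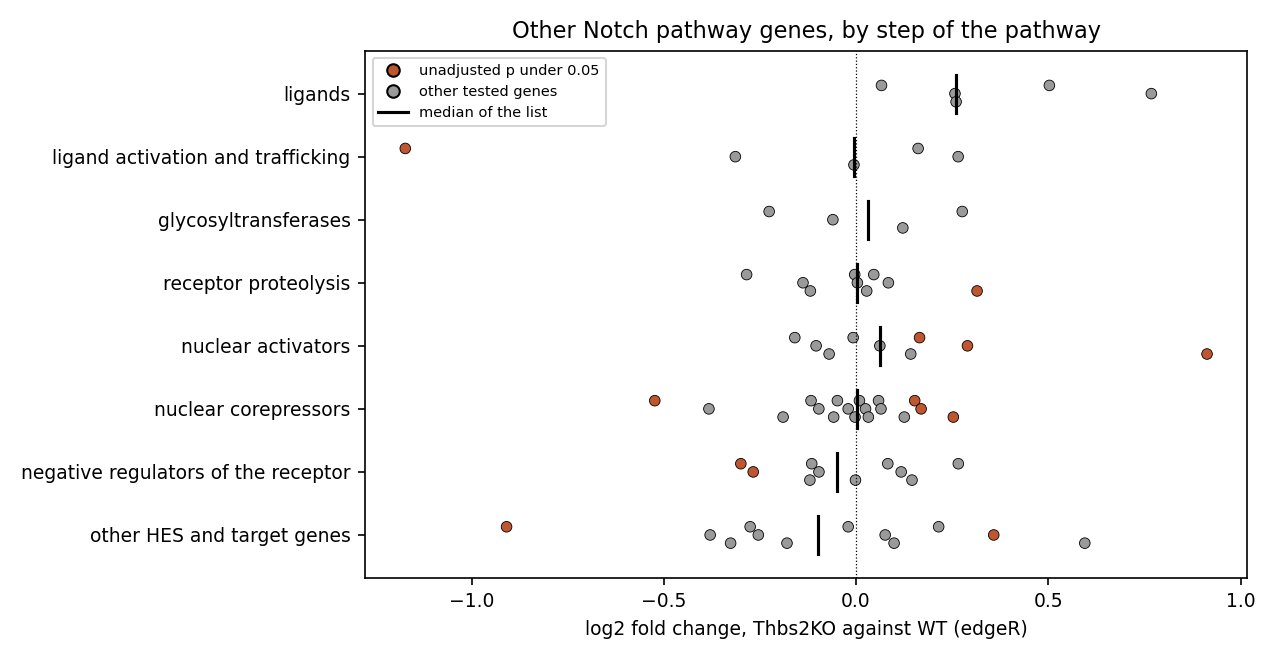
Log2 fold change of the tested genes of 8 Notch pathway lists, Thbs2KO against WT (edgeR). Each point is a gene, orange where the unadjusted p was under 0.05, and the vertical bar is the median of the list. List medians lie between -0.10 and 0.26, and Neurl1a at -1.17 and Maml3 at 0.91 are farthest out.

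Receptor maturation and cleavage were well represented in both groups. Of the glycosyltransferases that modify the receptor's EGF repeats, 0 of 4 tested had an unadjusted p under 0.05, against 13.3% of all tested genes. Pofut1, which adds the fucose, measured 80.9 ± 16.6 and 97.9 ± 17.5 CPM in WT and Thbs2KO, Poglut1, which adds glucose, 45.4 ± 3.71 and 49.4 ± 3.72 CPM (SD, n = 3), and the elongating enzyme Mfng had 2 reads in all. Among 9 tested protease genes, 1 was higher at an unadjusted p under 0.05 (5.72% over all tested genes), Adam17, at 74.5 ± 11.4 CPM in WT against 92.6 ± 8.87 CPM in Thbs2KO (adjusted p = 0.363 by edgeR with Benjamini-Hochberg adjustment). The most abundant per kb was Ncstn, which encodes the gamma-secretase subunit nicastrin, at 48.5 ± 4.27 and 51.4 ± 7.51 CPM per kb. Ubiquitin ligases act on the ligand in the signal-sending cell, and 1 of 5 tested was lower at an unadjusted p under 0.05 (7.56% over all tested genes). Mib1, the main one for Jagged and Delta proteins, measured 134.3 and 133.8 CPM, with a log2 fold change of -0.01. That 1 was Neurl1a, at 2.84, 2.497 and 2.22 CPM in WT and 0.804, 1.51 and 1.03 CPM in Thbs2KO. The groups did not overlap, and the log2 fold change was -1.17 (standard error 0.293 by edgeR, Benjamini-Hochberg adjusted p = 0.141, DESeq2 adjusted p = 0.0399). Neurl2, its relative, measured 2.20 ± 0.382 and 1.77 ± 0.481 CPM.

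In the nucleus, Rbpj itself measured 270.4, 183.6 and 238.2 CPM in WT and 232.4, 223.8 and 188.0 CPM in Thbs2KO. The groups overlapped, and the log2 fold change was -0.10 (95% interval -0.48 to 0.27, edgeR, Benjamini-Hochberg adjusted p = 0.865). Maml3, a Mastermind-like coactivator of the Notch complex, measured 7.92, 7.01 and 5.20 CPM in WT and 11.4, 12.0 and 14.5 CPM in Thbs2KO. All Thbs2KO libraries were above all WT libraries (log2 fold change 0.91, standard error 0.19 by edgeR, Benjamini-Hochberg adjusted p = 0.0901, DESeq2 adjusted p = 0.00144). Its relatives Maml1 and Maml2 had log2 fold changes of 0.06 and 0.14. Unadjusted p was under 0.05 for 3 of 9 tested nuclear activators, all of them higher, where 5.72% of all tested genes were higher by that measure. The acetyltransferase gene Kat2b measured 39.2 ± 2.56 and 47.9 ± 5.15 CPM.

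Unadjusted p was under 0.05 for 4 of 18 tested corepressors, which RBPJ can recruit in the absence of Notch. Of these 3 were higher and 1 was lower, beside 5.72% and 7.56% of all tested genes. Kdm1a, a histone demethylase gene among the higher ones, measured 66.1 ± 7.10 and 78.8 ± 3.67 CPM. Of 10 tested genes listed as negative regulators of the receptor, 2 passed that p, both lower, beside 7.56% of all tested genes. The direction in which each listed gene acts on the receptor was not tested. Numbl, related to the endocytic adaptor Numb, measured 87.6, 82.5 and 80.9 CPM in WT and 68.2, 64.9 and 70.7 CPM in Thbs2KO (log2 fold change -0.30, standard error 0.0692 by edgeR, Benjamini-Hochberg adjusted p = 0.117, DESeq2 adjusted p = 0.0184). Fbxw7, a ubiquitin ligase subunit that marks the intracellular domain for degradation, measured 19.0 ± 0.356 and 15.8 ± 0.991 CPM.

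**Figure D5:**
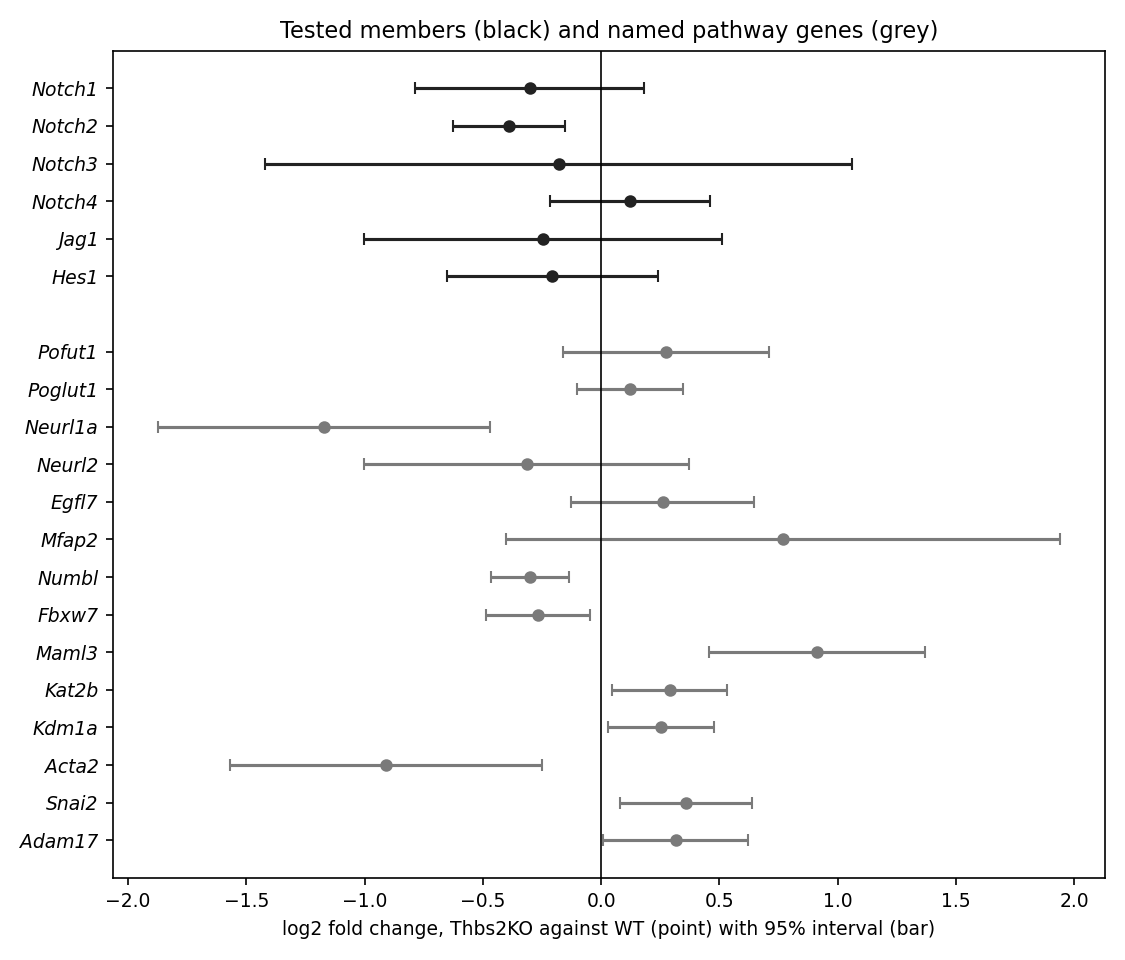
Log2 fold change with its 95% interval, Thbs2KO against WT, for the 6 tested members (black) and for named genes of 8 pathway lists (grey). The interval of Notch2 runs from -0.62 to -0.15 and that of Notch3, the widest of the members, from -1.42 to 1.06.

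Among 12 tested genes of the HES family or reported as Notch targets, 1 was higher (Snai2) and 1 lower (Acta2) at an unadjusted p under 0.05, beside 5.72% and 7.56% of all tested genes. Hes2, Hes3, Hes5, Hes7 and Helt had 0 to 4 reads per library, and Nrarp, a feedback inhibitor that Notch signalling induces, 0 to 4 reads. Hes6, which encodes a HES protein that opposes Hes1, measured 11.2 and 12.98 CPM in WT and Thbs2KO. Acta2, smooth muscle actin, which Notch can induce in mural cells, had a log2 fold change of -0.91 (standard error 0.275 by edgeR, Benjamini-Hochberg adjusted p = 0.217, DESeq2 adjusted p = 0.0206). Without WT replicate 1 that value was -1.17 (edgeR, adjusted p = 0.0146). Acta2 also belongs with the contractile genes, and the summed pericyte and smooth muscle markers given above were also higher in WT replicates 2 and 3 than in the Thbs2KO libraries. Their part in the result was not tested. Snai2, the transcription factor Slug, measured 63.5 ± 8.17 and 81.3 ± 7.51 CPM (SD, n = 3). Ccnd1, cyclin D1, reached an adjusted p of 0.0433 without WT replicate 1, with a log2 fold change of 0.84, while with all libraries its log2 fold change was -0.28 (edgeR, Benjamini-Hochberg adjusted p = 0.91). WT replicate 1 had 5527 Ccnd1 reads, against 1046 and 1437 in the other WT libraries and 1843 to 2072 in Thbs2KO. This gene was named after its values were seen.

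Antisense and overlapping genes were checked because the library kit does not mark strand. Exons of Notch1 overlap those of 2 antisense transcripts on 1068 and 414 bases, exons of Notch3 those of Gm17276 on 488 bases, and exons of Notch2 those of Gm42820, on the same strand, on 541 bases. Reads of these stretches cannot be assigned to 1 gene with certainty. The overlapping genes held at most 13 reads in any library.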

How the data were processed

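The authors deposited expected counts per gene, which are read numbers estimated per library with no scaling across libraries. The submitters' processing notes name the tools Trimmomatic 0.39, STAR 2.7.3a and RSEM, and the build mm10. Neither a version of RSEM nor the release of the annotation is given in the sources used here. Values (3.80% to 3.88% per library not whole) were rounded before testing. A read that fits several genes is split among them by an estimate in RSEM. Libraries were made with a TruSeq v2 kit.

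Genes passing filterByExpr (13590 of 55401) were scaled by TMM and compared in R 4.3.3 with edgeR 4.0.16, using its quasi-likelihood test with robust estimation and genotype as the model, adjusted by Benjamini-Hochberg over all tested genes at a threshold of 0.05. Tested intervals and standard errors come from that fit. Log2 CPM used a prior count of 2. Intervals of ratios of summed counts are exact binomial at 95%. Positions and exon lengths come from GENCODE M21 (GRCm38, the build of mm10), which matched 99.53% of genes. The edgeR step was run on simulated counts as a check of the code. These were drawn independently at the dispersions fitted here, without outlying or near-identical libraries. That check does not bear on the results for the members. Same-numbered WT and Thbs2KO libraries did not deviate together (correlations of -0.292, 0.171 and -0.331), so numbers were not taken to pair them. Thbs2KO replicates 1 and 2 (chi-square per degree of freedom of 3.78, against 15.6 to 121.8 for other pairs) were kept as 2 samples. DESeq2 1.42.0 and limma-voom (limma 3.58.1) were alternatives.

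The 10 members, the pathway and marker lists and the rule for named genes were chosen with earlier results of these data known. The rule took all members, then any called pathway gene, the 2 genes of smallest p and the most abundant gene per list, and the 5 genes nearest in pattern to Notch3 and to the member of smallest p. Some genes that the rule names are not reported here.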

Additional observations from a re-analysis of the deposited data

How the results depend on the processing

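The 16 alternatives were RLE and upper-quartile scaling, DESeq2, limma-voom, a replicate block, estimation that is not robust, a stricter filter and none, each of 6 libraries left out and, added after the data were examined, WT replicate 1 and Thbs2KO replicate 3 both left out or Thbs2KO replicates 1 and 2 summed. The count of members called was 0 in 14 of them, 1 by DESeq2 (Notch2) and 2 without both libraries (Notch2 and Jag1). For other pathway genes it was 5 by DESeq2, 12 without both libraries, and 0 to 2 with 1 library left out (2 without WT replicate 1, Acta2 and Ccnd1). Over all tested genes 148 were called, against 699 by DESeq2, 245 with no filter, 30 with the replicate block, 1519 without both libraries, 40 with Thbs2KO replicates 1 and 2 summed, and 38 to 397 with 1 library left out. With the replicate block, Notch2 had a log2 fold change of -0.39 (edgeR, Benjamini-Hochberg adjusted p = 0.316), and 0 members were called. Sample numbers alone were shared, so this is no paired design.

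The log2 fold change of Hes1 ran from -0.34 to 0.0345 with 1 library left out (0.0345 without WT replicate 1) and was 0.0703 without both libraries. That of Notch3 ran from -0.58 to 0.50 (0.50 without WT replicate 1) and was 0.0970 without both. Notch1, Notch2, Notch4 and Jag1 kept their sign in all 16. The causes were not tested. Jag2, Hey1, Hey2 and Heyl had at most 11 reads in any library and did not reach testable counts.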
